A study of Homo sapiens with 16 samples.

Results

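The results below are about 45 human genes whose products build ribosomes in the nucleolus, the nuclear body where ribosomal RNA is made. They were chosen by name as factors of ribosomal RNA transcription, small nucleolar ribonucleoproteins (snoRNPs) and subunit assembly, and all 45 were found among the 56832 gene names of the deposited count table. That rule used no measured value, but the genes were chosen with earlier results of these data known. RNA was sequenced from H69 and H69M, both labelled as small cell lung cancer (SCLC) lines, after stable lentiviral delivery of a non-targeting control hairpin (shNTC, labelled wild type) or of a hairpin against EIF6 (sheIF6, labelled as eIF6 knockdown). Each line and hairpin gave cytoplasmic RNA from a lysate with cycloheximide, a drug that holds ribosomes on mRNA, and RNA from the polysomal part of a sucrose gradient. These make 8 groups of 2 libraries, 16 in all, and every group carries a hairpin and the same growth medium. The sources used here do not say how H69M was obtained, whether a hairpin line is 1 clone, or whether the 2 libraries of a group are separate cultures. P-values therefore measure the spread between these samples, which may be technical.

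Ribosome production begins when RNA polymerase I, helped by the factors UBTF and RRN3, copies the ribosomal DNA into a long precursor. Box C/D snoRNPs methylate that precursor and box H/ACA snoRNPs convert chosen uridines to pseudouridine, while the small subunit processome and a set of large subunit assembly factors fold and cut it around the ribosomal proteins. Transcription factors of the MYC family bind the hexamer CACGTG and are known activators of many of these genes, and eIF6, the target of the hairpin, rides on the maturing large subunit from the nucleolus to the cytoplasm.

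The hexamer was searched in the windows from 250 bases before to 50 bases after each RefSeq start on GRCh38.p14. A window was held for 39 of the 45 genes, some with more than 1 start, and 17 of their 49 windows (34.7%) contained CACGTG, against 2548 of 35116 windows of the whole reference table (7.30%). CACGTG reads the same on both strands. The 5 sequences printed here are those of genes whose difference between lines on polysomes passed the test without any 1 library and whose hexamer lies from 80 bases before to 20 bases into the transcript. Of 12 genes whose difference passed in this way, 10 had a window, 6 held the hexamer anywhere in a window and 5 in that stretch. The 5 sequences are printed 5′ to 3′ in the direction of the gene, with the hexamer in capitals.
FBL: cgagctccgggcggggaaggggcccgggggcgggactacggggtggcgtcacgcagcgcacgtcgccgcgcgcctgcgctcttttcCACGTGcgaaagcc
GNL3: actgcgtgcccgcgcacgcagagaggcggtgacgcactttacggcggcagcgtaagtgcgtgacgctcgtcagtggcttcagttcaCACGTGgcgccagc
LYAR: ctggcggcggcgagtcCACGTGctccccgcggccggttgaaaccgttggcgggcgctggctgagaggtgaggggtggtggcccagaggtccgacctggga
RRP9: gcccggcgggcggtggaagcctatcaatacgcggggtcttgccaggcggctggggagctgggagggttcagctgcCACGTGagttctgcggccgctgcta
UTP20: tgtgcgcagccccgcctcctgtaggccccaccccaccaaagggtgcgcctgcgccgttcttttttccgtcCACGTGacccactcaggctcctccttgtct
The FBL stretch is chr19:39846360-39846459 on the minus strand, that of GNL3 chr3:52685952-52686051 on the plus strand, and that of LYAR chr4:4290002-4290101 on the minus strand. RRP9 is shown at chr3:51941885-51941984 on the minus strand and UTP20 at chr12:101280025-101280124 on the plus strand. In FBL and GNL3 the hexamer begins 6 bases after the start, in RRP9 5 bases, in UTP20 10 bases and in LYAR 64 bases before it. FBL, GNL3, LYAR and RRP9 were lower in H69M on polysomes and UTP20 was higher, so both directions are found among genes with the hexamer near the start. Of the 26 genes that were lower in H69M in at least 1 fraction, 22 had a window and 9 of these held the hexamer. Among the other 19 genes, 17 had a window and 7 held it. A match of 6 letters describes the window and was not tested as a binding site.

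Library totals ran from 36005326 to 87269772 counts, and the 45 genes together took between 0.402% and 1.01% of a library. The lowest count of any of them was 341 (LYAR) and the highest 101306 (NPM1), so all 45 passed the low-count filter that kept 23100 genes. The spread between the paired libraries, not counting error, limited the comparisons. EIF6 mRNA was at 116 and 112 CPM (counts scaled to a common library size) in the H69 control cytoplasmic libraries and 65.1 and 67.8 with sheIF6, and on polysomes at 424 and 389 against 234 and 219.8. In H69M it was at 204 and 165 against 161 and 96.3 in cytoplasmic RNA, and at 323 and 202 against 86.4 and 136 on polysomes. Both sheIF6 libraries lay below both control libraries in each setting, yet no EIF6 change passed edgeR's quasi-likelihood test after Benjamini-Hochberg adjustment over all genes (adjusted p of 0.204 to 1.0), and DESeq2 called the H69M polysomal one (adjusted p = 0.0149). The SCLC label was checked against 10 neuroendocrine markers. All 10 were detected in H69 (summed 2136 to 4300 CPM), whereas in H69M the sum was 135 to 642 CPM. NEUROD1, at 3.43 to 10.7 CPM in H69, was at 0 in 2 of 8 H69M libraries. NCAM1 overlapped between the lines, at 197 to 274 CPM in H69 and 112 to 240 in H69M, and made up much of the H69M sum. Non-neuroendocrine SCLC markers summed to 96.5 to 271 CPM in H69 and 3951 to 6002 in H69M. Of these CD44 overlapped between the lines, at 77.9 to 253 CPM in H69 and 185 to 673 in H69M. Of the 5 genes listed as fibroblast markers, COL1A1 (6274 to 18960 CPM) and COL1A2 (3736 to 22610) were the highest in H69M, COL3A1 (51.2 to 271) and LUM (18.1 to 91.2) were lower, and DCN was at 0.13 to 0.68. The list as a whole summed to 115 to 511 CPM in H69 and 10140 to 38310 in H69M. Leukocyte markers summed to at most 6.67 CPM in every library.

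MYCN, a MYC family gene, was at 1181 to 1802 CPM in the 8 H69 libraries and at 20.4 to 112 CPM in the 8 H69M libraries. In the control libraries its log2 difference, H69M minus H69, was -5.49 (SE 0.604) in cytoplasmic RNA (edgeR adjusted p = 3.5e-05) and -4.19 (SE 0.567) on polysomes (adjusted p = 0.000163). MYC went the other way, from 2.18 to 9.02 CPM in H69 to 14 to 47.5 in H69M, and MYCL stayed under 1 CPM throughout. These ranges pool both hairpins. For MYC both sheIF6 libraries lay below both controls in each line and fraction. The log2 values in cytoplasmic and polysomal RNA were -1.45 and -1.50 in H69 and -0.80 and -1.15 in H69M, none called (edgeR adjusted p of 0.498 to 0.859). The part of MYCN, of MYC or of the markers above in any difference described next was not tested.

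Per kilobase of exon, the 45 mRNAs spanned a wide range in control cells. NPM1, a histone and ribosome chaperone that shuttles between nucleolus and cytoplasm, stood highest in each of the 4 control groups, with 254 ± 14.7 CPM per kilobase (mean ± SD, n = 2 libraries throughout) in H69 cytoplasmic RNA, 598 ± 140 on H69 polysomes, 207 ± 41.3 in H69M cytoplasmic RNA and 277 ± 57.9 on H69M polysomes. The table of gene models names 45 numbered NPM1 pseudogenes, which could take or give reads. NHP2 (115 ± 7.77), FBL (111 ± 16.9) and NOP10 (96.1 ± 7.96) followed in H69 cytoplasmic RNA, and NHP2 and FBL did not differ beyond their spread. FBL, the methyltransferase of box C/D snoRNPs, stood second on polysomes in both lines, at 409 ± 39.0 CPM per kilobase in H69 and 108 ± 25.5 in H69M. At the foot of the order in cytoplasmic RNA was WDR12, a partner of PES1 and BOP1 in the large subunit complex PeBoW, at 3.84 ± 0.00646 CPM per kilobase in H69 and 3.17 ± 0.390 in H69M. WDR75 was last on H69 polysomes (4.39 ± 1.35) and DDX10 on H69M polysomes (3.91 ± 0.214), both factors of small subunit assembly. In H69 cytoplasmic RNA WDR12 lay below its neighbours WDR3 (5.01 ± 0.349) and WDR75 (5.01 ± 0.236) by more than their spread, and in the other 3 groups the lowest gene and its neighbour did not differ beyond theirs. This order depends on the divisor, which joins the exons of all models of a gene. For WDR12 it was 9098 bases, beside a coding length of 1269, and for LYAR and GAR1 2319 and 2046 bases. In undivided CPM, LYAR and GAR1 stood below WDR12 in H69 control cytoplasmic RNA.

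**Figure D1:**
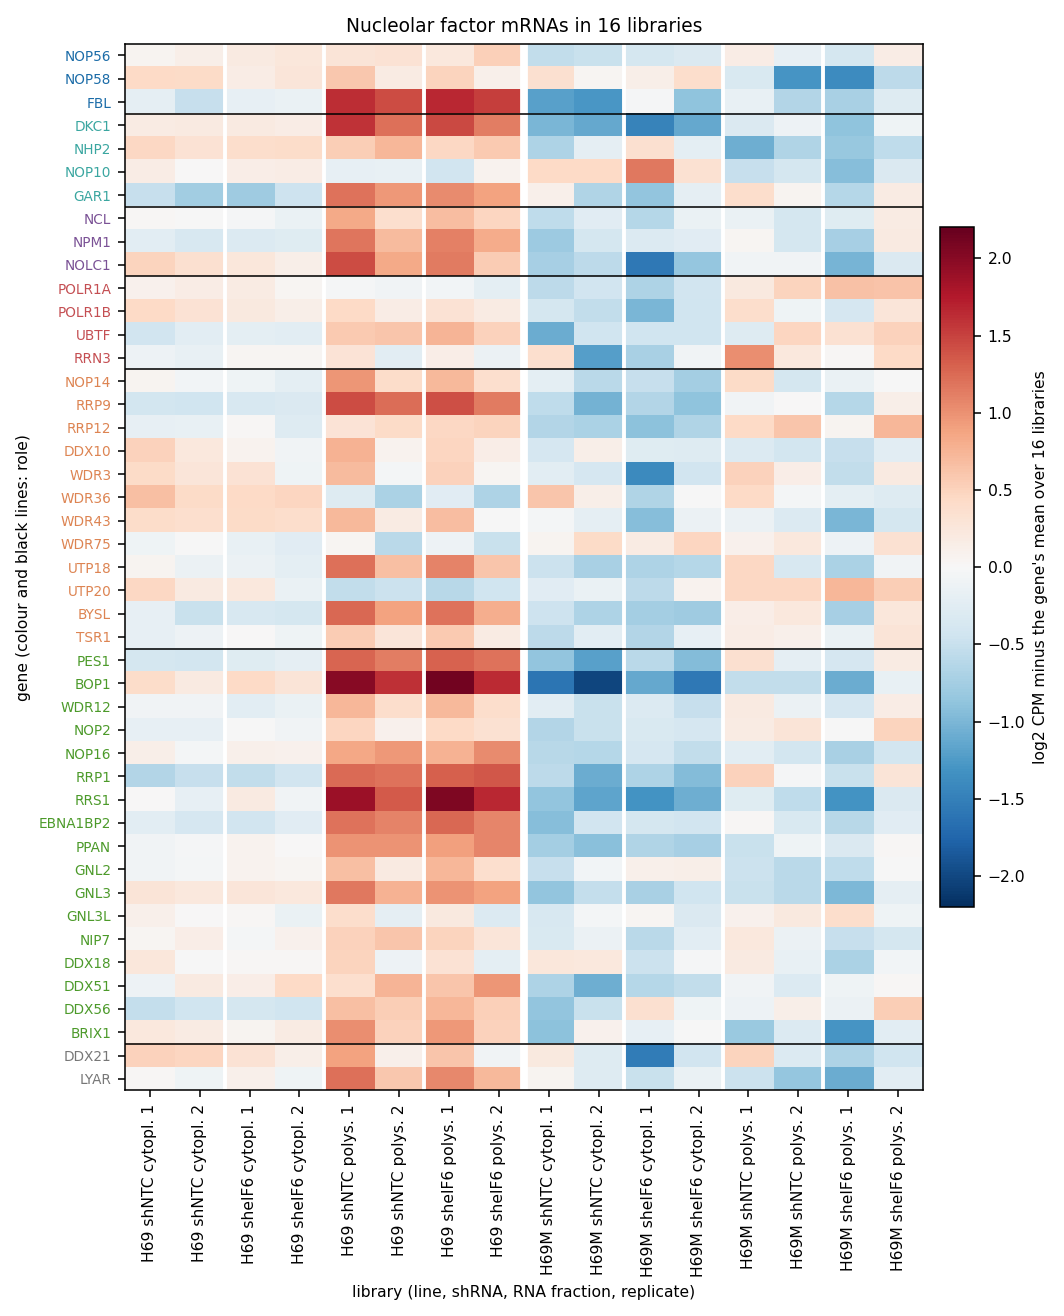
Level of each of the 45 nucleolar factor mRNAs in each of the 16 libraries, as log2 CPM minus the gene's mean over all libraries, with genes in rows by role and libraries in columns by line, fraction and hairpin. The H69 polysomal columns are the highest for most genes. Columns of shNTC and sheIF6 differ less in H69 than in H69M, where DDX21, FBL and DDX56 stand furthest apart in cytoplasmic RNA, and no knockdown change passed the test.

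Summed over the 45 genes, control cytoplasmic RNA held 5658 and 5396 CPM in H69 and 3737 and 4038 in H69M. On polysomes the control sums were 11680 and 9331 CPM in H69 and 5737 and 4981 in H69M. Both H69M libraries lay below both H69 libraries in each fraction, and both polysomal libraries lay above both cytoplasmic libraries in each line. With sheIF6 the sums were 5557 and 5447 CPM in H69 cytoplasmic RNA, 11310 and 9664 on H69 polysomes, 4202 and 4331 in H69M cytoplasmic RNA and 4151 and 6115 on H69M polysomes. The sheIF6 and control sums overlapped in 3 of the 4 settings, and in H69M cytoplasmic RNA both sheIF6 sums were above both control sums.

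The first comparison asked what knockdown of EIF6 did to these mRNAs in each line and fraction. None of the 45 passed the test in any setting. By edgeR 0 of 45 passed the limit of 0.05 in each of the 4 settings, against 0% of the 23100 genes tested in H69 cytoplasmic RNA, 0.00433% on H69 polysomes, 0.156% in H69M cytoplasmic RNA and 0.0649% on H69M polysomes. DESeq2, limma-voom and the fit with the replicate block also gave 0 of 45 in each setting. At an unadjusted p under 0.05 the edgeR counts were 0 and 0 in H69, where 3.01% and 4.14% of all genes met it. In H69M they were 4 in cytoplasmic RNA (8.89%: FBL, WDR36, DDX56 and DDX21) and 1 on polysomes (2.22%: NIP7), below the 11% and 8.15% of all genes. Median log2 changes of the 45 genes were 0.00 and -0.04 in H69 and 0.01 and -0.12 in H69M, beside -0.01, 0.00, 0.00 and -0.01 over all genes. Individual values ran from -0.37 to 0.25 and from -0.28 to 0.23 in H69, and from -0.87 to 0.85 and from -0.70 to 0.28 in H69M. The SE of a gene was 0.182 to 0.426 in these contrasts, and 42 and 44 of the 45 genes in H69 moved by less than 1 SE, against 28 and 27 in H69M. Changes of the size of 1 SE were not detectable with 2 libraries a group.

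Single libraries are given here for the anchor genes NCL, UBTF and PES1 in H69. NCL, a nucleolar phosphoprotein that binds the precursor RNA, was in H69 cytoplasmic RNA at 570.0 and 558 CPM with shNTC and 549.7 and 509 with sheIF6. UBTF, which opens ribosomal DNA for polymerase I, was at 198 and 225 against 227 and 225 CPM in H69 cytoplasmic RNA. PES1, a subunit of PeBoW, was at 422 and 379 against 427 and 396 CPM on H69 polysomes. The groups overlapped for PES1 on H69 polysomes. In H69 cytoplasmic RNA both sheIF6 libraries lay above both controls for PES1, NOP56, FBL and RRN3 and below them for POLR1B and WDR12. DKC1, NPM1, POLR1A and BOP1 overlapped there. For UBTF both sheIF6 libraries lay above both controls, the nearest pair at 225.3 and 225.2 CPM, and for NCL both sheIF6 libraries were lower by less than the edgeR SE of 0.25 on the log2 scale.

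The widest values were in H69M. DDX21, an RNA helicase that links polymerase I transcription to precursor processing, was at 130.3 and 92.1 CPM in control cytoplasmic RNA and at 38.3 and 83.3 with sheIF6, a log2 value of -0.87 (SE 0.391, edgeR adjusted p = 0.441). FBL was at 134 and 125 CPM in control and 302 and 166 in sheIF6 cytoplasmic RNA, a log2 value of 0.85 (SE 0.283, adjusted p = 0.317). DDX56, a helicase of large subunit assembly, was at 85.5 and 111 CPM against 198 and 146, a log2 value of 0.81 (SE 0.248, adjusted p = 0.280). In all 3 genes the control and sheIF6 libraries did not overlap, and the 2 sheIF6 libraries differed from each other by more than the 2 controls did.

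On H69M polysomes the same 3 genes stood at -0.70, -0.09 and 0.23 on the log2 scale, none of them called. Both sheIF6 libraries lay outside the range of both controls in 20 genes in H69 cytoplasmic RNA (10 above and 10 below, 44.4%, beside 34.3% of all genes), in 3 on H69 polysomes (6.67% beside 22.7%), in 17 in H69M cytoplasmic RNA (37.8% beside 39.8%) and in 7 on H69M polysomes (15.6% beside 32.6%). These shares stood at or below the background apart from H69 cytoplasmic RNA. In H69 0 genes lay outside the controls on the same side in both fractions, beside 8.95% of all genes. In H69M 3 did (6.67%, beside 16.9% of all genes), all below: NOLC1, a chaperone of snoRNPs, WDR36, a small subunit processome factor, and DDX21.

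**Figure D2:**
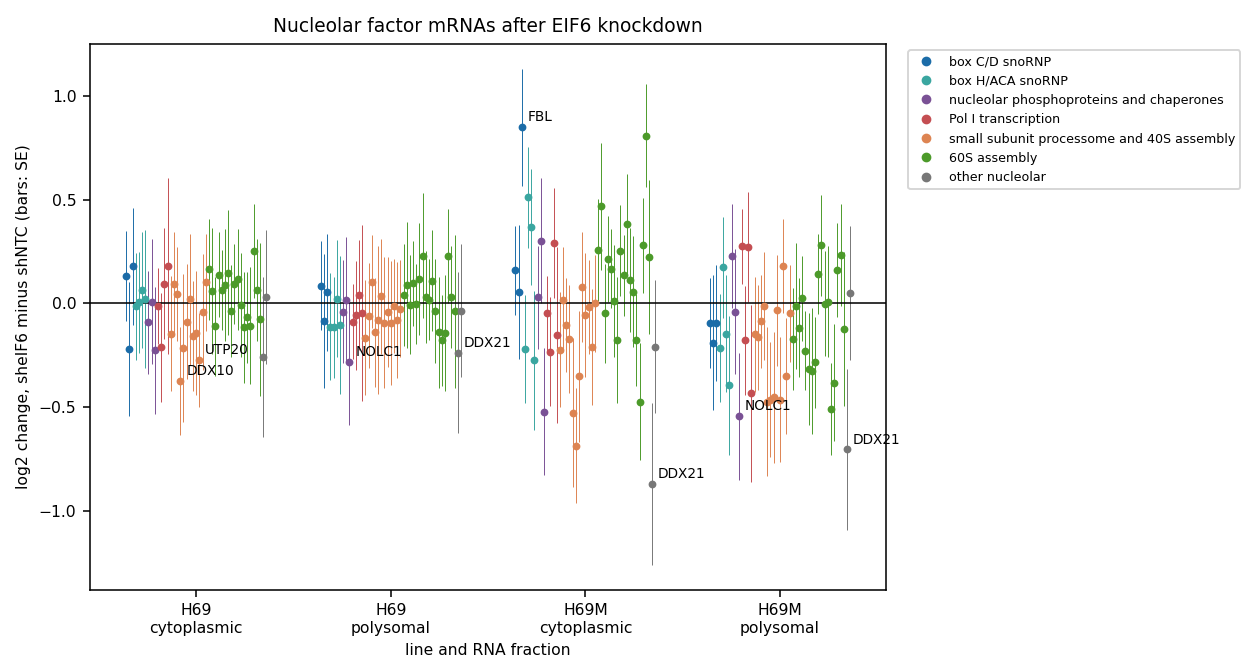
Log2 change with sheIF6 against shNTC for the 45 genes in each line and fraction, each point 1 gene, grouped by role. H69 points lie between -0.37 and 0.25 and H69M points between -0.87 and 0.85, and none passed the adjusted limit.

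Whether knockdown shifted the polysomal share of these mRNAs was tested by an interaction of hairpin and fraction. By edgeR 0 of 45 genes passed in H69 (0% of all genes) and 0 in H69M (0% of all genes), with 0 and 1 gene at an unadjusted p under 0.05 (1.66% and 1.70% of all genes), and DESeq2 and limma-voom gave 0 as well. The 1 gene was FBL in H69M, with a log2 value of -0.94 (SE 0.398, adjusted p = 1.0). The difference of the knockdown change between lines was called for 0 of 45 genes in cytoplasmic RNA (0.0303% of all genes) and for 0 on polysomes (0.00433%), with 0 genes at an unadjusted p under 0.05 in either (4.93% and 5.09% of all genes) and 0 by DESeq2 and limma-voom. Of 96 other ribosome biogenesis genes in a list of small subunit, large subunit, polymerase I and exosome factors, 0 were called in any of the 4 knockdown settings by edgeR, DESeq2 or limma-voom, with 1, 1, 7 and 6 at an unadjusted p under 0.05 (1.04%, 1.04%, 7.29% and 6.25%, in each setting below the share of all genes given above).

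The second comparison set control H69M against control H69. In cytoplasmic RNA 13 of the 45 mRNAs (28.9%) were lower in H69M and 0 were higher, beside 14.1% lower and 16.2% higher among all genes. On polysomes 23 (51.1%) were lower and 1 (2.22%) was higher, beside 15.6% lower and 18.4% higher among all genes. The median log2 difference of the 45 was -0.41 in cytoplasmic RNA and -0.81 on polysomes, where the median of all genes was -0.01 and 0.02. The lists of lower genes shared 10 members, 76.9% of the 13 and 43.5% of the 23: FBL, DKC1, NHP2, NOLC1, BOP1, NOP16, RRS1, PPAN, GNL3 and DDX51. The share of all genes lower in both fractions was not computed. In RNA from many cells, fewer cells of a type and less of an mRNA per cell cannot be told apart. The comparisons of lines and of fractions use the same 8 control libraries.

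Among the 17 large subunit assembly factors, the role with the most genes, 6 were lower in cytoplasmic RNA and 11 on polysomes. Some smaller roles had counts as large for their size. Of the 3 box C/D genes 2 were lower in each fraction, and all 3 phosphoproteins and chaperones were lower on polysomes. Of the 12 small subunit factors 0 and 4 were lower. BOP1, the scaffold of PeBoW (chromosome 8, 144262102 to 144291370, minus strand, GRCh38), was at 222 and 191 CPM in H69 and at 54.9 and 41.3 in H69M in cytoplasmic RNA. On polysomes it was at 669 and 508 CPM in H69 and at 115 and 115 in H69M. The lines lay far apart in both fractions, and BOP1 was 4.29-fold lower in cytoplasmic RNA (log2 -2.10, SE 0.323, edgeR adjusted p = 0.000312) and 5.11-fold lower on polysomes (log2 -2.35, SE 0.321, adjusted p = 0.000149).

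RRS1, which brings the 5S ribonucleoprotein to the early large subunit (chromosome 8, 66429028 to 66430733, plus strand), stood at 54.4 and 47.9 CPM in H69 and 29.6 and 24.3 in H69M cytoplasmic RNA. On polysomes it stood at 199 and 138 against 45.1 and 36.8 CPM. Its log2 differences were -0.93 (SE 0.307, adjusted p = 0.0364) and -2.04 (SE 0.316, adjusted p = 0.000373), and no H69M library reached an H69 library. GNL3, the GTP-binding protein nucleostemin (chromosome 3, 52681156 to 52694492, plus strand), whose promoter is printed above, was at 173 and 131 CPM on H69 polysomes and 55.2 and 51.0 on H69M polysomes, a log2 difference of -1.52 (SE 0.258, adjusted p = 0.000722).

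The other PeBoW members gave smaller differences than BOP1. PES1 (chromosome 22, 30576625 to 30607083, minus strand) was at 133 and 132 CPM in H69 and 95.4 and 75.7 in H69M cytoplasmic RNA, and at 422 and 379 against 223 and 152 on polysomes. Its difference passed on polysomes alone (log2 -1.09, adjusted p = 0.00481), with -0.64 (adjusted p = 0.0692) in cytoplasmic RNA. WDR12 was at 34.9 and 35.0 against 31.4 and 26.4 CPM in cytoplasmic RNA and 61.5 and 48.3 against 42.2 and 33.9 on polysomes, log2 values of -0.28 and -0.53 that were not called. Both H69M libraries were below both H69 libraries for PES1 and WDR12 in each fraction. The remaining lower factors on polysomes were EBNA1BP2 (-1.28), BRIX1 (-1.33), PPAN (-1.26), NOP16 (-1.22), GNL2 (-0.98), RRP1 (-0.96) and DDX51 (-0.76). PPAN shares 59.8% of its exon bases with overlapping genes, among them a read-through transcript, and its reads may be split with them.

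Of the 3 box C/D proteins, FBL and NOP56 were lower in cytoplasmic RNA and FBL and NOP58 on polysomes. FBL (chromosome 19, 39834458 to 39846414, minus strand) was at 267 and 215 CPM in H69 and 134 and 125 in H69M cytoplasmic RNA, and at 949 and 829 against 274 and 195 on polysomes. The polysomal gap was the wider one, with a log2 difference of -1.92 (SE 0.288, adjusted p = 0.00032) against -0.90 (SE 0.283, adjusted p = 0.0299) in cytoplasmic RNA. NOP56, a core protein of the same particle (chromosome 20, 2652145 to 2658393, plus strand), was at 271 and 284 against 179 and 185 CPM in cytoplasmic RNA (log2 -0.61, SE 0.217, adjusted p = 0.0499) and at 317 and 325 against 292 and 230.3 on polysomes (log2 -0.30, adjusted p = 0.307). Its partner NOP58 was lower on polysomes by -1.13 on the log2 scale (adjusted p = 0.0184).

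In the box H/ACA particle, DKC1 and NHP2 were lower in both fractions. DKC1, the pseudouridine synthase dyskerin (chromosome X, 154762742 to 154777689, plus strand), was at 261 and 265 CPM in H69 and 115 and 105 in H69M cytoplasmic RNA, and at 694 and 535 against 184 and 213 on polysomes. These are log2 differences of -1.25 (SE 0.264, adjusted p = 0.00305) and -1.63 (SE 0.266, adjusted p = 0.000548), with no overlap of the lines. NHP2 differed by -0.81 (adjusted p = 0.0237) and -1.49 (adjusted p = 0.00064), with 27.4% of its exon bases shared with RMND5B on the opposite strand. The small protein NOP10 was at 56.4 and 50.1 CPM in H69 and 67.7 and 67.6 in H69M cytoplasmic RNA, one of 4 members with a log2 value above 0 there (0.35, adjusted p = 0.390), and GAR1 was not called in either fraction.

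All 3 nucleolar phosphoproteins and chaperones were lower on polysomes. NPM1 (chromosome 5, 171387116 to 171411137, plus strand) was at 2665 and 1910 CPM on H69 polysomes and 1217 and 903 on H69M polysomes, a log2 difference of -1.11 (SE 0.306, adjusted p = 0.0142). In cytoplasmic RNA it was at 1011 and 931 against 682 and 906 CPM (log2 -0.29, adjusted p = 0.513). NCL (chromosome 2, 231453531 to 231483641, minus strand) was at 993 and 725 against 506 and 430.1 CPM on polysomes (log2 -0.88, SE 0.251, adjusted p = 0.0172) and at 570.0 and 558 against 379 and 469 in cytoplasmic RNA (log2 -0.41, adjusted p = 0.240). Both genes had H69M below H69 in every control library, with the gap past the test on polysomes. NOLC1 (chromosome 10, 102152176 to 102163871, plus strand), at 216 and 197 against 93.3 and 104 CPM, was lower by -1.07 in cytoplasmic RNA (SE 0.307, adjusted p = 0.0194) and by -1.24 on polysomes (adjusted p = 0.00837).

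The polymerase I genes showed another pattern. POLR1A, the largest subunit (chromosome 2, 86020216 to 86106155, minus strand), was at 85.1 and 89.4 CPM in H69 and 53.5 and 59.8 in H69M cytoplasmic RNA, a log2 difference of -0.62 (SE 0.183, adjusted p = 0.0207). On polysomes it was at 78.5 and 75.1 against 92.7 and 112 CPM, a log2 value of 0.41 (SE 0.182, adjusted p = 0.0964). H69M thus lay below H69 in one fraction and above it in the other.

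POLR1B, the second-largest subunit (chromosome 2, 112541915 to 112577150, plus strand), was at 66.1 and 60.7 against 37.2 and 33.5 CPM in cytoplasmic RNA (log2 -0.84, SE 0.265, adjusted p = 0.0292) and at 65.9 and 54.6 against 63.6 and 45.6 on polysomes, where the lines overlapped (log2 -0.14, adjusted p = 0.707). UBTF was at 198 and 225 against 123 and 196 CPM in cytoplasmic RNA and 395 and 404 against 217 and 368 on polysomes (log2 -0.41 and -0.45, neither called). RRN3, which readies polymerase I for initiation, was at 44.7 and 43.0 against 62.5 and 20.8 CPM in cytoplasmic RNA and 59.4 and 41.0 against 97.3 and 56.7 on polysomes (log2 -0.07 and 0.62, neither called), and its H69M libraries spanned the H69 values. No polymerase I gene was called between lines on polysomes.

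Among the 12 small subunit factors none was called in cytoplasmic RNA, and 4 were lower and 1 higher on polysomes. The higher one was UTP20, a very long scaffold of the small subunit processome (chromosome 12, 101280109 to 101386616, plus strand), at 46.2 and 48.0 CPM on H69 polysomes and 92.0 and 92.1 on H69M polysomes. Its log2 difference there was 0.97 (SE 0.229, adjusted p = 0.00634), whereas in cytoplasmic RNA it was at 91.4 and 76.6 against 56.5 and 60.5 CPM (log2 -0.52, adjusted p = 0.104). The order of the lines was opposite in the 2 fractions without overlap.

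RRP9, a box C/D protein bound to the U3 RNA (chromosome 3, 51933430 to 51941941, minus strand), was at 139 and 120.5 CPM on H69 polysomes and 48.3 and 51.4 on H69M polysomes, a log2 difference of -1.38 (adjusted p = 0.00137). BYSL (-0.90), UTP18 (-0.85) and DDX10 (-0.81) were also lower there. LYAR, a nucleolar zinc finger protein of growing cells (chromosome 4, 4267701 to 4290169, minus strand), overlapped between the lines in cytoplasmic RNA, at 17.4 and 16 against 17.8 and 13.9 CPM. On polysomes it was at 39.2 and 25.6 against 12.2 and 9.39 CPM, a log2 difference of -1.59 (SE 0.327, adjusted p = 0.0028). DDX21 was not called in either fraction (-0.50 and -0.40).

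**Figure D3:**
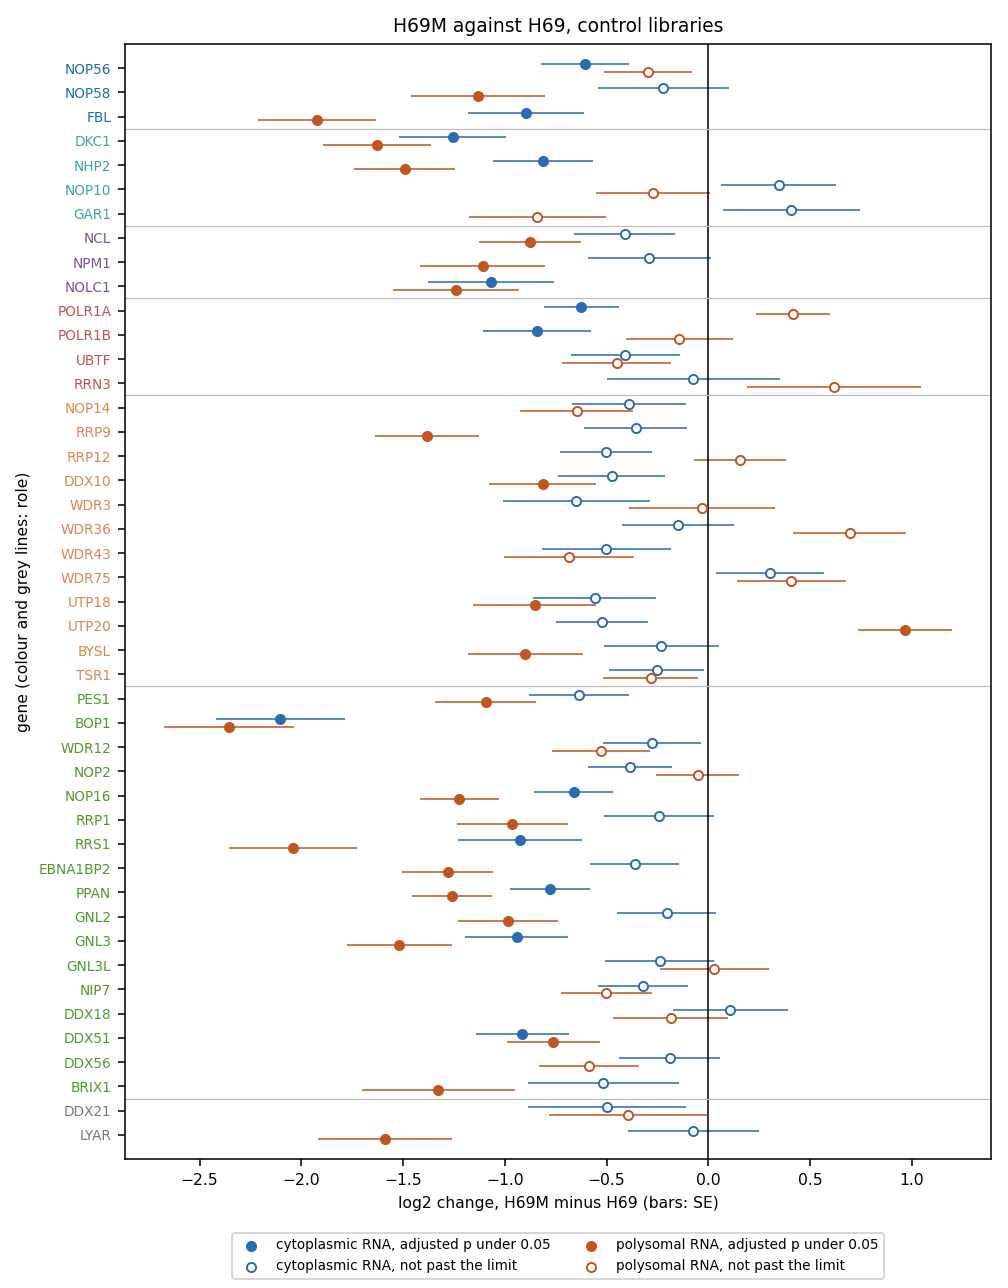
Log2 difference of H69M minus H69 in control libraries for each of the 45 genes, in cytoplasmic and polysomal RNA, with bars of 1 SE and filled points for an adjusted p under 0.05. BOP1 lies furthest left in both fractions at -2.10 and -2.35, and UTP20 at 0.97 on polysomes is the one filled point to the right of 0.

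The sheIF6 libraries of the 2 lines, compared in the same fit, were looked at after the data had been seen. They gave 12 lower and 0 higher genes in cytoplasmic RNA, 10 of them among the 13 above, where 14.6% and 16.9% of all genes were called, with a median log2 difference of -0.40. FBL (-0.22, adjusted p = 0.583), NHP2 (-0.31, adjusted p = 0.371) and NOP56 (-0.58, adjusted p = 0.0577) were the calls not made there. On polysomes they gave 24 lower and 2 higher genes, with 17.3% and 19.0% of all genes called and a median of -0.83, and 22 of the 24 calls above were made again. NCL (-0.61, adjusted p = 0.0746) and DDX10 (-0.69, adjusted p = 0.0578) were not, and POLR1A passed beside UTP20 as higher (0.78, adjusted p = 0.00554). With the replicate block within each line, NOP14 (adjusted p = 0.0321) was also lower and WDR36 (adjusted p = 0.0467) also higher on polysomes, both past the limit in that fit alone.

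Leaving out 1 library changed how many calls were made. In cytoplasmic RNA 2 of 13 calls were made when H69 shNTC cytoplasmic replicate 2 was omitted, and 4 when replicate 1 of that group or either H69M shNTC cytoplasmic library was; DKC1 and BOP1 passed in all 16 such fits. The other 11 were lost in fits with adjusted p of 0.0519 to 0.199, each without at least 2 of these 4 libraries in turn, and NOP56 was lost in 14 of the 16 fits. On polysomes 14 of the 24 calls were made again without H69 shNTC polysomal replicate 1, and 14 without H69M shNTC polysomal replicate 2. In all 16 fits 12 passed: FBL, DKC1, NHP2, RRP9, UTP20, BOP1, NOP16, RRS1, EBNA1BP2, PPAN, GNL3 and LYAR. NCL and NPM1 were lost without either of the 2 libraries just named, with adjusted p of 0.149 and 0.101 for NCL and 0.114 and 0.0999 for NPM1. The calls of NOP58, RRP1 and GNL2 were lost without the same 2, NOLC1 without the first alone (adjusted p = 0.0823) and PES1 without the second alone (adjusted p = 0.0503). BRIX1, BYSL, DDX10, DDX51 and UTP18 were each lost without 2 or more libraries, with adjusted p of 0.052 to 0.314.

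Of the 96 other ribosome biogenesis genes 14 (14.6%) were lower in H69M in cytoplasmic RNA, near the 14.1% of all genes, and 3 (3.12%) were higher. On polysomes 39 (40.6%) were lower and 4 (4.17%) higher, with median log2 differences of -0.19 and -0.55. The largest falls on polysomes were those of EXOSC5, an exosome subunit (-1.85), RIOK1, a kinase of late small subunit maturation (-1.77), and KRR1, a small subunit processome factor (-1.61). HEATR1 (1.47) and MDN1 (1.34), both very large assembly proteins, and TAF1C of the polymerase I selectivity factor (0.76) were higher. In cytoplasmic RNA NOP9 (-1.46), EXOSC5 (-1.27) and RIOK1 (-1.22) fell furthest, and NOC3L (1.09), UTP3 (1.05) and FCF1 (0.57) were the 3 higher ones. Proliferation markers, whose genes accompany ribosome production in many cells, summed to 1307 to 1473 CPM in H69 and 889.5 to 1359 in H69M cytoplasmic RNA, and to 2012 to 2563 and 1395 to 2263 on polysomes. The 5 markers did not move together, and over both fractions the lines overlapped for each. PCNA was at 326 to 1131 CPM in H69 and 205 to 442 in H69M. MKI67 was at 142 to 282 and 149 to 358 CPM, and TOP2A, MCM2 and CCNB1 overlapped widely. The part of these markers in the result was not tested.

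The third comparison set polysomal against cytoplasmic RNA of the same control cells. In H69 16 of the 45 mRNAs (35.6%) were higher on polysomes and 2 (4.44%) lower, beside 6.63% higher and 5.20% lower among all genes. In H69M 6 (13.3%) were higher and 0 lower, beside 2.16% and 2.54% of all genes. The median log2 difference of the 45, polysomal minus cytoplasmic, was 0.59 in H69 and 0.52 in H69M, where that of all genes was -0.14 and 0.00. Scaling by total counts in place of TMM (trimmed mean of M-values) lowered the all-gene median by 0.34 in H69 and 0.26 in H69M and, between the lines in cytoplasmic RNA, by 0.14. The split of calls was then 13 higher and 2 lower in H69 and 2 higher and 1 lower in H69M. Mitochondrial mRNAs took 2.66% to 5.66% of cytoplasmic and 0.300% to 1.40% of polysomal libraries, and nuclear-retained RNAs summed to 540.2 to 1306 CPM and 99.0 to 473 CPM. Without mitochondrial and ribosomal RNA genes in the scaling the counts were the same 16 and 2 in H69 and 6 and 0 in H69M, and the part of nuclear RNA was not tested.

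FBL showed the widest gap in H69, at 267 and 215 CPM in cytoplasmic and 949 and 829 in polysomal RNA, a log2 difference of 1.88 (SE 0.291, edgeR adjusted p = 0.0036). In H69M it was at 134 and 125 against 274 and 195 CPM, a log2 value of 0.85 (SE 0.282, adjusted p = 0.103). Polysomal libraries lay above cytoplasmic ones in both lines, and the H69 gap alone passed. NOP56, its partner, was at 271 and 284 against 317 and 325 CPM in H69 and 179 and 185 against 292 and 230.3 in H69M, log2 values of 0.21 and 0.52 that were not called.

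DKC1 was at 261 and 265 against 694 and 535 CPM in H69 (log2 1.22, SE 0.262, adjusted p = 0.0107) and at 115 and 105 against 184 and 213 in H69M (log2 0.85, adjusted p = 0.0814; 0.035 with the replicate block). GAR1, a small H/ACA protein, rose from 17.9 and 15.0 CPM in cytoplasmic to 57.8 and 49.3 in polysomal RNA of H69 (log2 1.70, SE 0.341, adjusted p = 0.00814). Its H69M values were 27.5 and 16.1 against 33.3 and 26.5 CPM, which overlapped. NOP10, of the same particle, stood lower on polysomes than in the lysate in both lines, by log2 values of -0.26 and -0.88, neither called. The values of the 4 H/ACA mRNAs thus differed in sign, but in control libraries DKC1 and GAR1 alone passed, both higher on H69 polysomes.

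NPM1 was at 1011 and 931 CPM in cytoplasmic and 2665 and 1910 in polysomal RNA of H69 (log2 1.24, SE 0.306, adjusted p = 0.0215), and at 682 and 906 against 1217 and 903 in H69M, where the fractions overlapped (log2 0.42, adjusted p = 0.486). NCL was at 570.0 and 558 against 993 and 725 CPM in H69 and 379 and 469 against 506 and 430.1 in H69M, log2 values of 0.61 and 0.14 that were not called. UBTF was called in H69 (198 and 225 against 395 and 404 CPM, log2 0.92, adjusted p = 0.0437) and in H69M with the replicate block alone (log2 0.88, adjusted p = 0.0814, or 0.0264 with the block).

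POLR1A was not called in H69, at 85.1 and 89.4 against 78.5 and 75.1 CPM (log2 -0.18, adjusted p = 0.568). In H69M it was higher on polysomes, at 53.5 and 59.8 against 92.7 and 112 CPM (log2 0.85, SE 0.184, adjusted p = 0.0227). POLR1B gave log2 values of -0.07 and 0.63 and RRN3 0.20 and 0.89 in H69 and H69M, none called. All 4 polymerase I genes had values above 0 in H69M, of which 1 passed.

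The PeBoW genes PES1 and BOP1, with RRP1, a large subunit factor, were higher on polysomes in both lines, 18.8% of the 16 and 50% of the 6. Among all genes 6.63% were higher in H69 and 2.16% in H69M, and the share higher in both was not computed. PES1 was at 133 and 132 against 422 and 379 CPM in H69 (log2 1.59, SE 0.252, adjusted p = 0.0037) and at 95.4 and 75.7 against 223 and 152 in H69M (log2 1.13, SE 0.249, adjusted p = 0.025). BOP1 gave 1.51 (SE 0.311, adjusted p = 0.00887) and 1.26 (SE 0.313, adjusted p = 0.0382) from the values given for the lines. RRP1 was at 108 and 119 against 403 and 388 CPM in H69 (log2 1.80, adjusted p = 0.0036) and at 113 and 79.4 against 239.6 and 166 in H69M (log2 1.08, adjusted p = 0.0431). For all 3 both polysomal libraries lay above both cytoplasmic ones in each line.

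WDR12 was at 34.9 and 35.0 against 61.5 and 48.3 CPM in H69 and 31.4 and 26.4 against 42.2 and 33.9 in H69M, log2 values of 0.65 and 0.40 that were not called. RRS1 (1.72), EBNA1BP2 (1.44), DDX56 (1.08), PPAN (1.03) and NOP16 (0.86) passed in H69. NOP2, a methyltransferase of the large subunit RNA, was at 56.8 and 62.7 against 101 and 108 CPM in H69M (log2 0.81, adjusted p = 0.0451) and at 77.9 and 78.2 against 123 and 94.0 in H69 (log2 0.47, adjusted p = 0.159). NOP2 shares 54.4% of its exon bases with an overlapping gene model on the same strand. All 17 large subunit mRNAs had a log2 value above 0 in H69 and 14 of 17 in H69M, of which 8 and 4 passed. Of the 23100 genes tested 9670 and 11179 had a value above 0.

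The small subunit factors split. RRP9 rose from 38.6 and 37.9 to 139 and 120.5 CPM in H69 (log2 1.76, SE 0.261, adjusted p = 0.00349), and BYSL (1.42) and UTP18 (1.00, at the limit) were higher too. WDR36 (chromosome 5, 111091716 to 111130502, plus strand) was lower on H69 polysomes, at 97.4 and 82.4 against 50.6 and 38.0 CPM (log2 -1.02, SE 0.279, adjusted p = 0.0328). So was UTP20, at 91.4 and 76.6 against 46.2 and 48.0 CPM (log2 -0.83, SE 0.228, adjusted p = 0.0333). In H69M UTP20 was at 56.5 and 60.5 against 92.0 and 92.1 CPM, a log2 value of 0.65 (adjusted p = 0.122), with the polysomal libraries above. RRP12, an exporter of the small subunit, was higher on H69M polysomes, at 33.9 and 32.7 against 71.5 and 80.9 CPM (log2 1.20, SE 0.229, adjusted p = 0.0152), and not called in H69 (0.54, adjusted p = 0.145).

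**Figure D4:**
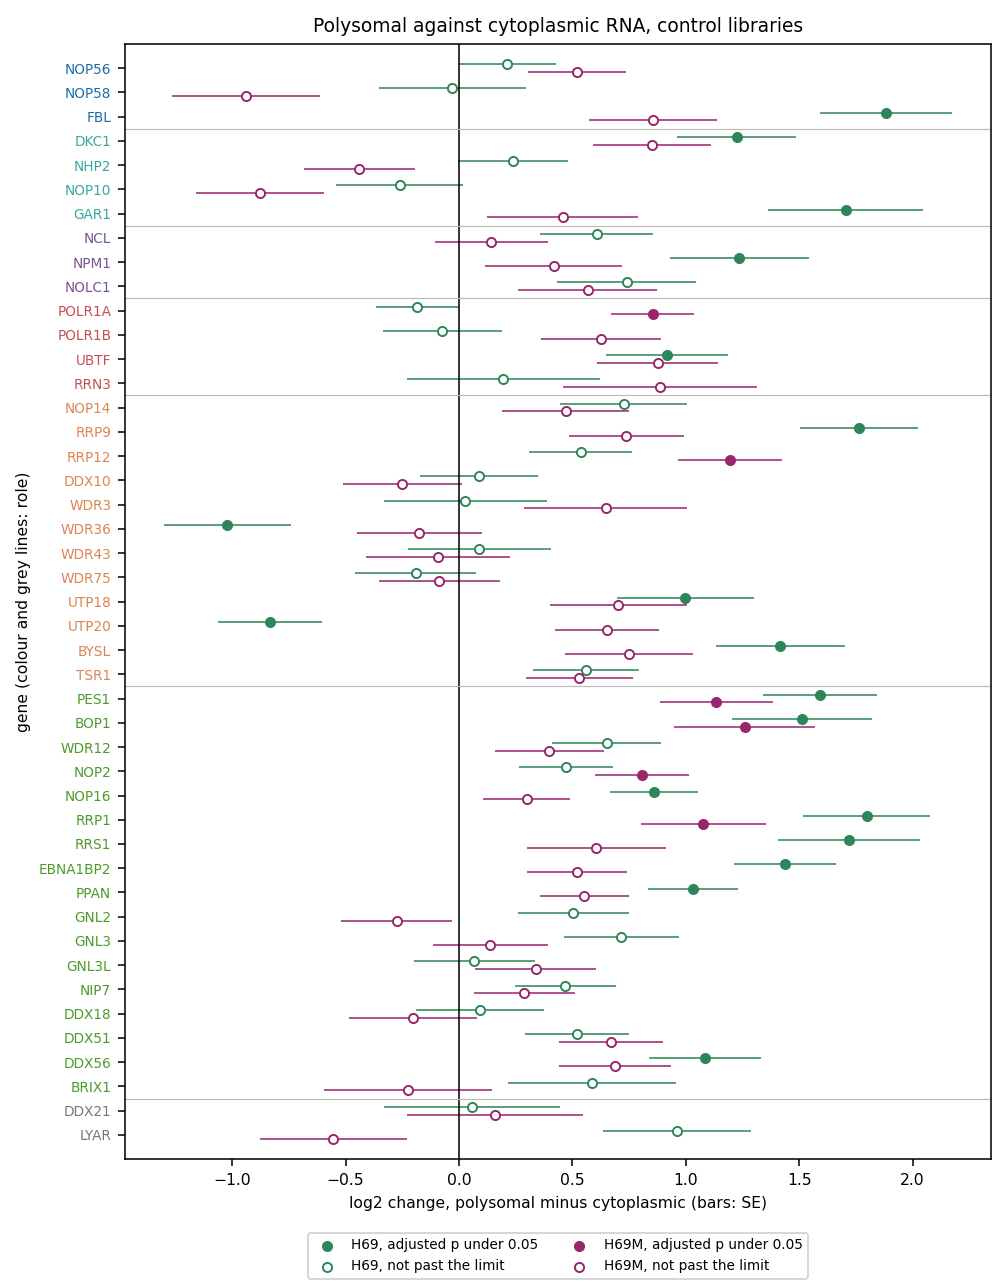
Log2 difference of polysomal minus cytoplasmic RNA in control libraries for each of the 45 genes, H69 in green and H69M in purple, with bars of 1 SE and filled points for an adjusted p under 0.05. FBL at 1.88 lies furthest right in H69, and WDR36 and UTP20 are the 2 filled points left of 0.

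Calls between fractions rested on few libraries. In H69 5 of 18 calls were made when either control cytoplasmic library was omitted (H69 shNTC cytoplasmic replicate 1 or 2), and 7 when H69 shNTC polysomal replicate 1 was. FBL, RRP9, PES1, RRP1 and EBNA1BP2 passed in all 16 fits that left out 1 library. DKC1 (adjusted p of 0.0822 to 0.0891), GAR1 (0.0533 to 0.0805), NPM1 (0.113 to 0.148), BOP1 (0.0628 to 0.0853), BYSL (0.0537 to 0.0872) and DDX56 (0.0812 to 0.116) lost their calls without any of these 3 libraries. RRS1 (0.0518 and 0.0585) and PPAN (0.0628 and 0.0735) lost theirs without either cytoplasmic library, NOP16 without any of the 4 control libraries of H69, WDR36 and UTP20 in 6 fits each, and UBTF and UTP18 in 12 each. In H69M no call passed in every such fit: 0 of the 6 were made again without either H69M shNTC cytoplasmic library, and 1 without H69M shNTC polysomal replicate 2 or either H69 sheIF6 cytoplasmic library. Of the same 6, 2 were made again without H69M shNTC polysomal replicate 1 and 3 without either H69 shNTC cytoplasmic library.

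Under the replicate block NOLC1 (adjusted p = 0.0475), NOP14 (0.0462), GNL3 (0.038) and LYAR (0.0468) were also higher on H69 polysomes, and DDX51 (0.0364) on H69M polysomes. The sheIF6 libraries, compared after the data had been seen, gave 15 higher and 0 lower genes in H69, where 5.66% and 4.0% of all genes were called. The 15 calls were all among the 18 above, without UBTF, WDR36 and UTP20. In H69M they gave 2 higher, RRP12 (1.21) and POLR1A (1.18), and 1 lower, NOP10 (-1.39, adjusted p = 0.0202), where 1.91% and 2.26% of all genes were called. The medians of the 45 genes were 0.62 in H69 and 0.33 in H69M. Polysomes of control H69 were enriched for 29 and depleted of 2 of the 96 other ribosome biogenesis genes (30.2% and 2.08%), those of H69M for 12 and of 3 (12.5% and 3.12%). In H69 WDR18 (1.86), EXOSC4 (1.81) and EXOSC7 (1.61) rose furthest, and TAF1D (-1.40) and MDN1 (-0.84) were lower. In H69M DDX54 (1.30), NOC2L (1.22) and DHX37 (1.14) rose furthest, and ESF1 (-2.28), MPHOSPH10 (-1.64) and TAF1D (-1.05) were lower.

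Whether polysome enrichment itself differed between the lines was tested by the interaction of line and fraction in the control libraries. By edgeR 0 of 45 genes passed (0% of all genes), 9 (20%) had an unadjusted p under 0.05, beside 9.21% of all genes, and limma-voom gave 0. DESeq2 called 2, beside 0.840% of all genes: UTP20 (log2 1.49, SE 0.324 and adjusted p = 0.281 by edgeR, 0.0101 by DESeq2) and POLR1A (log2 1.04, SE 0.258, adjusted p = 0.344 and 0.0207). The most negative values were those of LYAR (-1.52, SE 0.458), GAR1 (-1.25), RRS1 (-1.11), FBL (-1.03) and RRP9 (-1.03). The median of the 45 genes was -0.30, where that of all genes was 0.11, and 32 of the 45 lay below 0. The sheIF6 libraries gave 0 calls, 19 genes at an unadjusted p under 0.05, beside 15.7% of all genes, and a median of -0.40.

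The genes at the 2 ends differed in length. Coding length was that of each gene's longest protein-coding transcript in GENCODE models on GRCh38, which need not hold the gene's longest coding sequence. It ran from 192 bases (NOP10) to 8355 (UTP20) with a median of 1746. The 8 genes of at least 2500 coding bases (POLR1A, POLR1B, NOP14, RRP12, DDX10, WDR3, WDR36 and UTP20) had a median difference of enrichment, H69M minus H69, of 0.68, and 6 of 8 were above 0. The 30 genes from 1000 to under 2500 bases had a median of -0.33. The 7 genes under 1000 bases (FBL, NHP2, NOP10, GAR1, NPM1, NOP16 and NIP7) had a median of -0.68, and all 7 were below 0. Among all protein-coding genes tested the medians of the same classes were 0.56 (3077 genes), 0.03 (7208 genes) and -0.31 (4901 genes), so the order by length was that of the background.

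Across the 45 genes Spearman's rho between coding length and the difference of enrichment was 0.752, and across 15186 protein-coding genes it was 0.366. Across genes, which are not independent replicates, these values are descriptions, and all points come from the same 8 control libraries. With the difference between lines, rho was 0.612 on polysomes (0.167 over all coding genes) and -0.064 in cytoplasmic RNA (-0.010). With the polysomal minus cytoplasmic difference it was -0.512 in H69 (-0.160) and 0.211 in H69M (0.219). GC content of the exons went with the polysomal minus cytoplasmic difference in both lines, at rho of 0.600 in H69 and 0.596 in H69M, beside 0.427 and 0.466 over all coding genes. The sign of rho with length was negative in H69 and positive in H69M, and that with GC content was positive in both. The part of length and GC content in the differences was not tested.

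**Figure D5:**
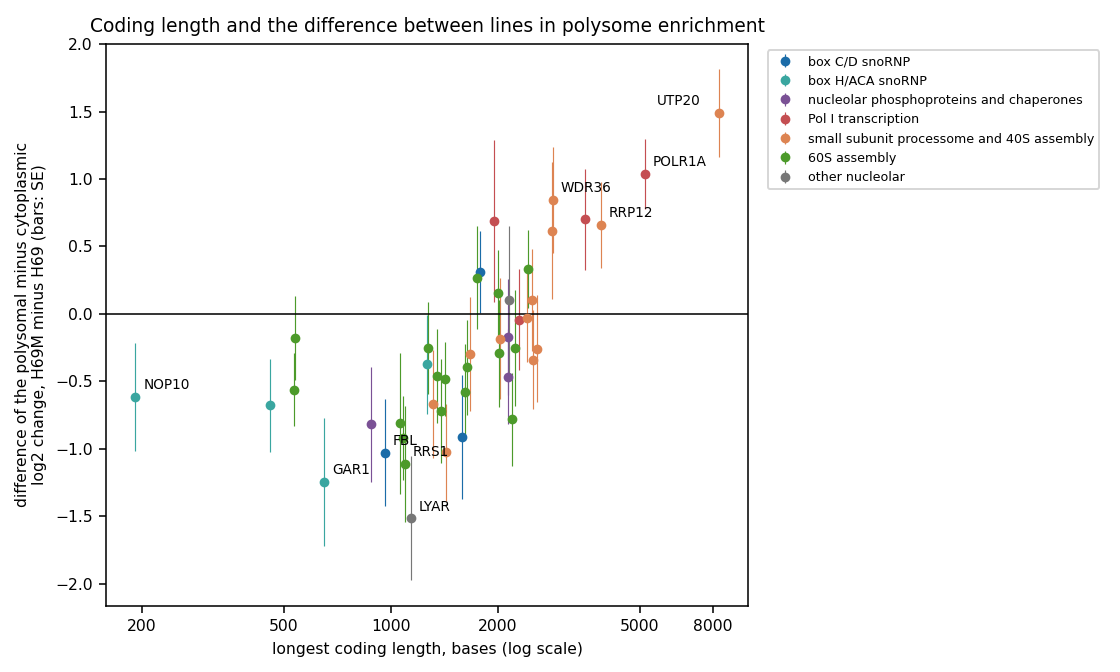
Difference of polysome enrichment between lines (H69M minus H69, log2, bars of 1 SE) against coding length in bases on a log axis. Each of the 45 genes is 1 point coloured by role. The axis label, longest coding length, means the coding length of the gene's longest protein-coding transcript. The 7 genes under 1000 bases lie below 0, and UTP20 at 8355 bases has the highest value, 1.49.

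By their gene models, 8 of the 45 genes hold 27 snoRNA genes inside them: GNL3 has 6, NOP56 5, NOP58 4, NCL and WDR43 3 each, and DKC1, TSR1 and PPAN 2 each. Several of these hosts carry guide RNAs for the precursor that their own proteins handle, and of the 8 hosts DKC1, GNL3 and PPAN were lower in H69M in both fractions. NOP56 was lower in cytoplasmic RNA alone, NOP58 and NCL on polysomes alone, and WDR43 and TSR1 in neither. Of all 45 genes 10 were lower in both fractions, 3 in cytoplasmic RNA alone and 13 on polysomes alone. Among all genes tested 14.1% were lower in cytoplasmic RNA and 15.6% on polysomes, and the share lower in both was not computed. Whether hosts differ from other genes was not tested. Numbered pseudogenes were named for 13 of the 45 genes, 3 shared over 25% of their exon bases with another gene (PPAN, NOP2 and NHP2), and 23 shared none. The strand setting of the counting is not given in the sources used here, so reads of overlapping genes on opposite strands may be mixed.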

How the data were processed

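Cytoplasmic and polysomal RNA of H69 and H69M with shNTC or sheIF6 was analysed in 8 groups of 2 libraries. The authors deposited raw counts per gene name, and the submitters' processing notes name STAR, HTSeq and GRCh38 without versions or a strand setting. The 45 genes, the list of 96 others, the marker lists and the alternatives were chosen with earlier results of these data known.

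Counts were fitted in R 4.3.3 with edgeR 4.0.16: filterByExpr with a minimum count of 10, TMM scaling, a mean for each of the 8 groups and a robust quasi-likelihood test (common dispersion 0.153, 8 residual degrees of freedom). Each contrast was adjusted by Benjamini and Hochberg over 23100 genes with a limit of 0.05. Each SE was obtained from the log2 change and the F statistic, as |log2 change| over its square root. CPM uses TMM-scaled totals, and CPM per kilobase divides by the exon length of GENCODE models matched by name. The fit was run on simulated data, where only the direction of the median log2 change of altered genes was required to be right. That run gives no measure here of error control with 2 libraries a group. Depth was 36005326 to 87269772 counts.

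All 45 genes may be named. Given in full are up to 6 called genes in each direction of a comparison and 12 anchors (NCL, NPM1, FBL, NOP56, DKC1, POLR1A, POLR1B, UBTF, RRN3, PES1, BOP1 and WDR12), with EIF6, the MYC family and up to 3 other called ribosome biogenesis genes in each direction. The knockdown contrasts are an exception, with single libraries given for NCL, UBTF, PES1, DDX21, FBL, DDX56 and EIF6 alone.

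Same-numbered libraries deviated together within a line in all pairs of groups (r of 0.168 to 0.280 in H69 and 0.172 to 0.578 in H69M) and not between lines (-0.107 to 0.0457). Pairing is not stated in the labels, and a fit with the replicate number as a block inside its line (6 residual degrees of freedom, common dispersion 0.0881) is given where it changes a call. Other alternatives were RLE scaling, total library size, scaling without mitochondrial and ribosomal RNA genes, no filter, a strict filter (50 counts in 2 libraries), DESeq2 1.42.0, limma-voom (limma 3.58.1), a fit of 1 line or 1 fraction alone, a block by numbered pair of fractions, leaving out each of the 16 libraries, and the sheIF6 libraries in place of shNTC, the last chosen after seeing the data. Leaving out 1 library leaves its group with 1, which was assumed to vary like the others. Sequences are from RefSeq, GRCh38.p14; protein sequences and the promoters of NOP58, NOLC1, RRP12, BOP1, RRS1 and DDX18 were not used here.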

Additional observations from a re-analysis of the deposited data

How the results depend on the processing

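Counts of called genes stayed at 0 in the 4 knockdown contrasts, the 2 contrasts of knockdown and fraction and the 2 of knockdown and line under every alternative run. For the lines, the 13 calls in cytoplasmic RNA ranged from 10 to 16 and the 24 on polysomes from 16 to 26 under other scalings, filters, tools and fits, and from 2 to 13 and from 14 to 24 when 1 library was left out. For the fractions, the 18 calls in H69 ranged from 15 to 24, and from 5 to 18 when 1 library was left out. The 6 calls in H69M depended most on the setting: 3 with total library size alone (2 higher and 1 lower), 14 with DESeq2, 12 with the replicate block by numbered pair, 0 with 1 line alone, 3 with the sheIF6 libraries, and 0 to 7 when 1 library was left out. Where the 2 lines were compared for enrichment, DESeq2 called 2 genes and edgeR 0. The cause of these changes was not tested. A replicate block inside each line gave 13 and 26 calls for the lines, 22 and 9 for the fractions and 0 for the other contrasts; the genes it added are named in the report and it removed none. Across the other scalings, filters, tools and fits, leaving out libraries apart, 10 of 13, 16 of 24, 14 of 18 and 0 of 6 calls passed in each one. No gene called in the control libraries changed direction in an alternative. Among genes not called, the sheIF6 libraries gave the other sign for 5 and 1 of the 45 between lines in cytoplasmic RNA and on polysomes, for 4 and 5 between fractions in H69 and H69M, and for 2 in the difference of enrichment. With 2 libraries a group, the spread between libraries and not the depth limits what can be called.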
